A study of Mus musculus with 8 samples.

Results

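The genes described here are 10 genes that mark GABAergic interneurons: Gad1, Gad2, Dlx1, Dlx2, Lhx6, Sst, Npy, Vip, Pvalb and Cck. They were chosen by name, and all 10 were found among the 34299 genes of a table of read counts. The counts come from 8 bulk RNA-seq libraries of mouse brain, described as whole brain by the labels' protocols. The libraries formed 3 groups. Wild-type (WT) fetuses at gestation day 15 gave 3 libraries, fetuses of the same age labelled as knockouts (KO) of Cav1 gave 3, and Cav1 KO brains at week 70 gave 2. Cav1 encodes caveolin 1, the scaffold protein of the membrane pits called caveolae, and every week 70 library carried the knockout. A WT group at week 70 was not analysed here, so age was compared only within the knockout. The knockout allele, the strain background and the litters were not given in the sources used here. The labels call the fetal samples biological replicates but do not say whether the 2 week 70 libraries came from separate animals, so p-values measure only the spread between these samples.

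GABAergic interneurons are the local inhibitory neurons of the forebrain. Most of them are born in the ganglionic eminences of the ventral telencephalon, where the homeobox factors Dlx1 and Dlx2 are active in progenitors and young neurons, and Lhx6 marks cells leaving the medial eminence as they migrate to the cortex. Glutamate decarboxylases, encoded by Gad1 and Gad2, make the transmitter GABA. Mature interneurons are sorted into classes by the calcium-binding protein parvalbumin (Pvalb) and by the peptides somatostatin (Sst), vasoactive intestinal peptide (Vip), neuropeptide Y (Npy) and cholecystokinin (Cck). None of the 10 genes is particular to interneurons in a whole brain. Gad1, Gad2 and the Dlx genes are also used by the projection neurons of the striatum, Cck by many glutamatergic neurons, and Sst and Npy by neurons of the hypothalamus.

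The promoters of the 4 peptide genes are shown because these genes rose together with age in the knockout and because peptide genes are textbook targets of the cyclic AMP response element, TGACGTCA. The RefSeq windows on GRCm38.p6 run from 250 bases before to 50 bases after each start site and are written 5′ to 3′ on the gene's strand. Capitals mark TGACGTCA, or its core TGACG on either strand (CGTCA on the other strand). They lie at chr16:23890795-23891094 (minus strand) for Sst, chr6:49822460-49822759 (plus) for Npy, chr10:5638968-5639267 (plus) for Vip and chr9:121495645-121495944 (minus) for Cck.
Sst: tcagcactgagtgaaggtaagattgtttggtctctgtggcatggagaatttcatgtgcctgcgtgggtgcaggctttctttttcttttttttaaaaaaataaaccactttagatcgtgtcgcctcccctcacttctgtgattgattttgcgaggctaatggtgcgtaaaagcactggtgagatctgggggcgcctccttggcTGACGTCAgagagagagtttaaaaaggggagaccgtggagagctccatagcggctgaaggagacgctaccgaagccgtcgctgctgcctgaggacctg
Npy: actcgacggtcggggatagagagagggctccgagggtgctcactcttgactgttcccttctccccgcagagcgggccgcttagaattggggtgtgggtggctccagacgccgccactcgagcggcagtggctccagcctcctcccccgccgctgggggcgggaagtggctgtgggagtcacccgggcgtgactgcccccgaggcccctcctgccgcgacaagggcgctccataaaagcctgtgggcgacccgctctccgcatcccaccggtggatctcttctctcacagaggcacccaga
Vip: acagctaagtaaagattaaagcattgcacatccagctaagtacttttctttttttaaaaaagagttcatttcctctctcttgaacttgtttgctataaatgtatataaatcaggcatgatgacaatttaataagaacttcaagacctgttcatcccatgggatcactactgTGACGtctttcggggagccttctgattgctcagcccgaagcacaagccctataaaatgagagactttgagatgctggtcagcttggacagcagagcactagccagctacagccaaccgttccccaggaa
Cck: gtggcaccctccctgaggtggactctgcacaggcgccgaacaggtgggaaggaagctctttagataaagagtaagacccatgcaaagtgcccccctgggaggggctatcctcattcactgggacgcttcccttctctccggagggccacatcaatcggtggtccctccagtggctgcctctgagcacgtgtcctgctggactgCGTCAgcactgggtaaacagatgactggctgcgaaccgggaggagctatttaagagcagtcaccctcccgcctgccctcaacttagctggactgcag
The Sst window holds the whole TGACGTCA, beginning 48 bases before the start site. The Vip window holds TGACG 79 bases before the start, the Cck window holds CGTCA 47 bases before it, and the Npy window holds neither. Among 32851 windows of the same 300 bases, TGACGTCA occurred in 588 (1.79%) and TGACG on either strand in 6837 (20.8%). All 10 genes had at least 1 window, and 5 of them (Gad2, Dlx2, Sst, Vip and Cck) held the core. Of the genes that rose with age, Gad2, Sst, Vip and Cck held the core and Gad1, Npy and Pvalb did not. Of those that fell, Dlx2 held it and Dlx1 and Lhx6 did not. These matches are letters in a window and were not tested for binding or for any link to the changes with age.

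Total counts ranged from 19414747 to 20833397 in the WT fetal libraries, from 14110031 to 15245283 in the KO fetal libraries and from 18924304 to 20203233 at week 70, so depth separated the fetal genotypes completely. Cav1 had 218 to 367 counts in WT, 0 to 3 in fetal KO and 1 to 5 in week 70 KO libraries. A list of 14 pan-neuronal genes summed to 6130 to 6880 CPM (counts scaled to a common library size by TMM over the 8 libraries) in WT, 4730 to 4990 in fetal KO and 12500 to 12700 at week 70. Several marker lists of other cells moved with genotype. Fibroblast and meningeal markers summed to 4540, 342 and 561 CPM in the WT libraries against 70.4 to 140 in fetal KO, and erythroid markers to 1030 to 1310 against 3590 to 4420. Hox genes of the hindbrain and spinal cord reached 167 CPM in WT replicate 3 and 0.561 CPM or less in the other WT libraries. They summed to 1.39 to 29.8 CPM in fetal KO and to 0 and 0.551 CPM at week 70. Near absence of these genes is at odds with a library holding the whole hindbrain. Whether all libraries hold the same parts of the brain was not tested. Xist, the X-inactivation transcript, had at least 54531 counts in each fetal library, 7969 in week 70 replicate 1 and 4 in week 70 replicate 2, whose 4 Y-linked genes summed to 2219 counts against 4 or fewer in every other library, so the week 70 libraries differ in sex. The part of these differences in the results below was not tested. In bulk tissue, fewer cells of a type and less RNA per cell cannot be told apart.

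At day 15 the knockout differed from WT in Dlx2 most. Dlx2 fell 3.33-fold, Lhx6 fell 1.53-fold, and Pvalb, with few counts in fetal brain, rose 1.73-fold. Gad1, Gad2, Dlx1, Sst, Npy and Cck did not pass the test, and Vip was too low to test. The test was edgeR's quasi-likelihood F-test with Benjamini-Hochberg adjustment over all tested genes, at an adjusted p of 0.05. Of the 9 genes tested, 3 were called, 1 higher and 2 lower. Among all 19147 tested genes, 62.6% were called (30.1% higher and 32.5% lower), so a call at day 15 was common. With upper-quartile scaling 4 members were higher and 2 lower, and the share of all calls that were higher was 60.8% in place of 48.1%; with a correction for transcript length and GC content 2 members were higher and 1 lower. The median log2 fold change of the 9 genes was -0.02, against 0.03 over all tested genes.

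**Figure D1:**
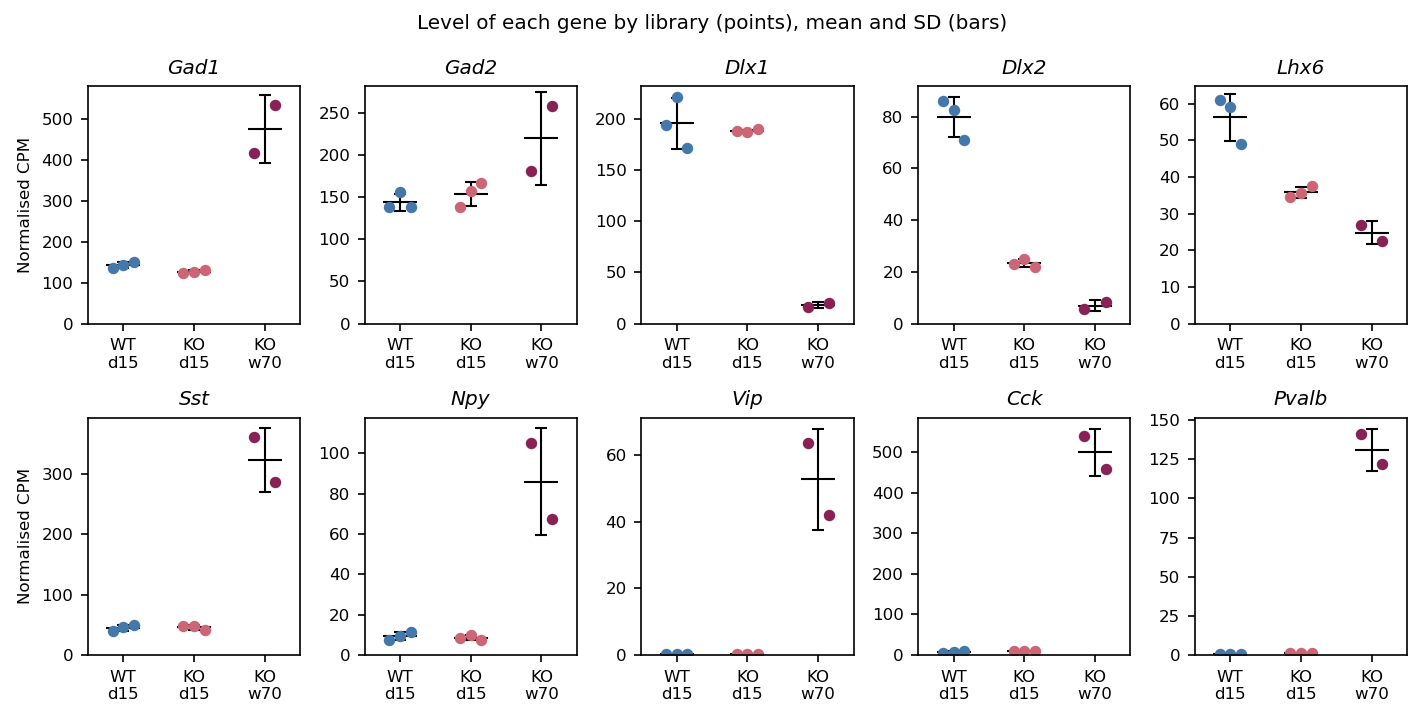
Normalised CPM of each of the 10 genes (linear axes from 0, which differ between genes) in every library, with WT day 15 (d15), KO day 15 and KO week 70 (w70) side by side; each point is a library and the bars are the group mean and SD. Dlx2 sits at 71 to 85.9 CPM in WT and at 22 to 24.9 in fetal KO, while Vip, Cck and Pvalb stand far higher at week 70 than in either fetal group.

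The 2 decarboxylase genes stayed close to WT. Gad1 (ENSMUSG00000070880, GRCm38 chr2:70553072-70602014, plus strand), which makes the decarboxylase present throughout the cell, stood at 136, 143 and 150 CPM in WT and 123, 126 and 131 CPM in fetal KO. The KO libraries lay below all WT libraries, yet the log2 fold change was -0.14 (95% interval -0.27 to 0) with an adjusted p of 0.077 by edgeR. Gad2 (ENSMUSG00000026787, chr2:22622205-22693874, plus strand), whose enzyme is concentrated at nerve terminals, stood at 138, 156 and 138 CPM in WT and 138, 157 and 167 CPM in fetal KO, and the groups overlapped. Its log2 fold change was 0.14 (95% interval -0.05 to 0.33; edgeR adjusted p = 0.178). After a correction for transcript length and GC content, Gad2 was called higher, with a log2 fold change of 0.23 and an edgeR adjusted p of 0.0144. Upper-quartile scaling also called Gad2 higher (0.31, edgeR adjusted p = 0.00776) and left Gad1 at 0.04, not called. Gad1 was called lower with no filter on low counts (-0.23, edgeR adjusted p = 0.00949) and without WT replicate 1 (-0.19, 0.0273).

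Within a library, the ratio of Gad2 to Gad1 counts does not depend on scaling. It was 1.01, 1.09 and 0.921 in WT and 1.12, 1.24 and 1.28 in fetal KO, so all KO values exceeded all WT values. The two-sided exact permutation test gave p = 0.1, the smallest that 3 against 3 libraries allow.

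The transcription factors divided. Dlx1 (ENSMUSG00000041911, chr2:71528113-71533981, plus strand) stood at 194, 222 and 172 CPM in WT and 188, 187 and 190 CPM in fetal KO, and the groups overlapped. The log2 fold change was -0.02 (95% interval -0.21 to 0.18; edgeR adjusted p = 0.87). Its neighbour Dlx2 (ENSMUSG00000023391, chr2:71543408-71546754, minus strand) stood at 85.9, 82.7 and 71 CPM in WT and 23, 24.9 and 22 CPM in fetal KO, with every KO library far below every WT library. The 2 homeobox genes are transcribed convergently from the same locus and are known to act in overlapping ways in forebrain development. Dlx2 fell by 1.74 on the log2 scale (SE 0.085, 95% interval -1.92 to -1.55), a 3.33-fold difference, with an edgeR adjusted p of 6.52e-08. Dlx2 held its call in all 15 alternative settings, and its log2 fold change ranged from -1.83 to -1.23.

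The ratio of Dlx2 to Dlx1 counts was 0.442, 0.373 and 0.414 in WT libraries and 0.122, 0.134 and 0.116 in fetal KO libraries. The mean fell from 0.41 to 0.124, with no overlap; the two-sided exact permutation p was 0.1, the smallest possible. An antisense transcript, Dlx1as, named after its values were seen, shares 335 exonic bases with Dlx1. Whether the counting used strand is not given in the sources used here, so reads of that stretch cannot be told apart. Dlx1as had 14.7 ± 2.19 CPM (SD, n = 3) in WT and 21 ± 1.32 (n = 3) in fetal KO, a log2 fold change of 0.55 (edgeR adjusted p = 0.0023). The call reversed with the length and GC correction, where Dlx1as was lower (-0.47, edgeR adjusted p = 0.00786). That correction also moved Dlx1 to 0.58 (edgeR adjusted p = 0.000435), called higher, while Dlx2 stayed lower at -1.23.

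**Figure D2:**
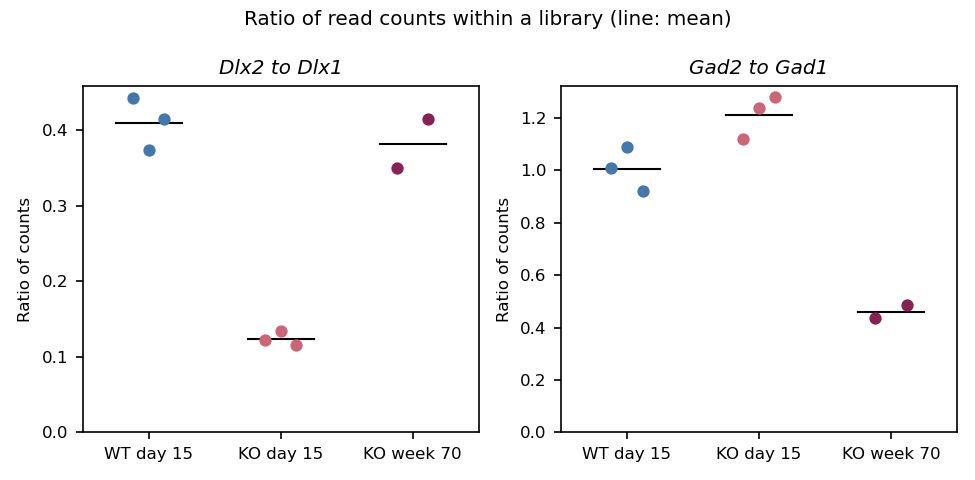
Ratio of Dlx2 to Dlx1 counts (left) and of Gad2 to Gad1 counts (right) within each library, by group; points are libraries and lines are group means. The Dlx2 to Dlx1 ratio is 0.116 to 0.134 in fetal KO and 0.35 to 0.442 in the other libraries, and the Gad2 to Gad1 ratio is lowest at week 70 (0.436 and 0.485).

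Lhx6 (ENSMUSG00000026890, chr2:36081953-36105408, minus strand), a LIM homeobox factor needed by interneurons of the medial eminence, stood at 60.9, 59.2 and 48.9 CPM in WT and 34.5, 35.5 and 37.5 CPM in fetal KO. The groups did not overlap, and Lhx6 fell by 0.61 on the log2 scale (SE 0.0876; edgeR adjusted p = 0.000131). The call ended with the correction for transcript length and GC content, which left a log2 fold change of -0.04 (edgeR adjusted p = 0.771). Other factors of the same cells, chosen after their values were seen, are given for context. Dlx5 fell from 30.4 ± 3.63 to 16 ± 2.33 CPM (SD, n = 3 each), with a log2 fold change of -0.88 (edgeR adjusted p = 0.000128; -0.84 with the correction). Dlx6, its neighbour, had a log2 fold change of 0.01 (edgeR adjusted p = 0.925). Nkx2-1, which specifies the medial eminence, fell by 0.95 on the log2 scale (edgeR adjusted p = 6.55e-06; -0.46 with the correction).

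None of the peptide genes passed the test at day 15. With upper-quartile scaling, however, Sst (log2 fold change 0.24, edgeR adjusted p = 0.043) and Cck (0.59, 0.0254) were called higher, and Npy (0.07, 0.753) was not called. Sst (ENSMUSG00000004366, chr16:23889573-23890958, minus strand), an inhibitory peptide, stood at 39.9, 45.7 and 49.9 CPM in WT and 48.3, 48.3 and 41.3 CPM in fetal KO, and the ranges overlapped (log2 fold change 0.07, 95% interval -0.14 to 0.28). Npy (ENSMUSG00000029819, chr6:49822710-49829507, plus strand) stood at 7.43, 9.33 and 11.6 CPM in WT and 8.54, 9.89 and 7.24 CPM in fetal KO, again overlapping (log2 fold change -0.1, 95% interval -0.51 to 0.3). These intervals do not exclude modest differences in either direction. Cck (ENSMUSG00000032532, chr9:121489824-121495694, minus strand) stood at 5.51, 7.29 and 10.2 CPM in WT and 10.8, 9.89 and 9.27 CPM in fetal KO. WT replicate 3 overlapped the KO range and the other WT libraries lay below it. The log2 fold change was 0.42 (95% interval -0.03 to 0.87; edgeR adjusted p = 0.0949), and without WT replicate 3 it was 0.67 and called (edgeR adjusted p = 0.0075). Vip (ENSMUSG00000019772, chr10:5639218-5647617, plus strand) had only 5, 4 and 4 counts in WT and 3, 4 and 4 counts in fetal KO, so a difference was not detectable at this depth.

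Parvalbumin (Pvalb, ENSMUSG00000005716, chr15:78191114-78206400, minus strand) had few reads, with 18, 15 and 14 reads counted in the WT libraries and 17, 27 and 23 in the fetal KO libraries. In normalised CPM these were 0.841, 0.749 and 0.703 against 1.03, 1.5 and 1.33, with no overlap. The log2 fold change was 0.79 (SE 0.289, 95% interval 0.15 to 1.43; edgeR adjusted p = 0.0345). The call was lost in 10 of 15 alternatives, among them DESeq2 (adjusted p = 0.154), the length and GC correction (log2 fold change 0.32) and leaving out any library except KO replicate 1. In all, 4 of the 9 tested genes had groups that did not overlap in CPM, against 68.4% of all tested genes. Pvalb was higher in KO (32.1% of all genes did so), and Gad1, Dlx2 and Lhx6 were lower (36.3%).

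**Figure D3:**
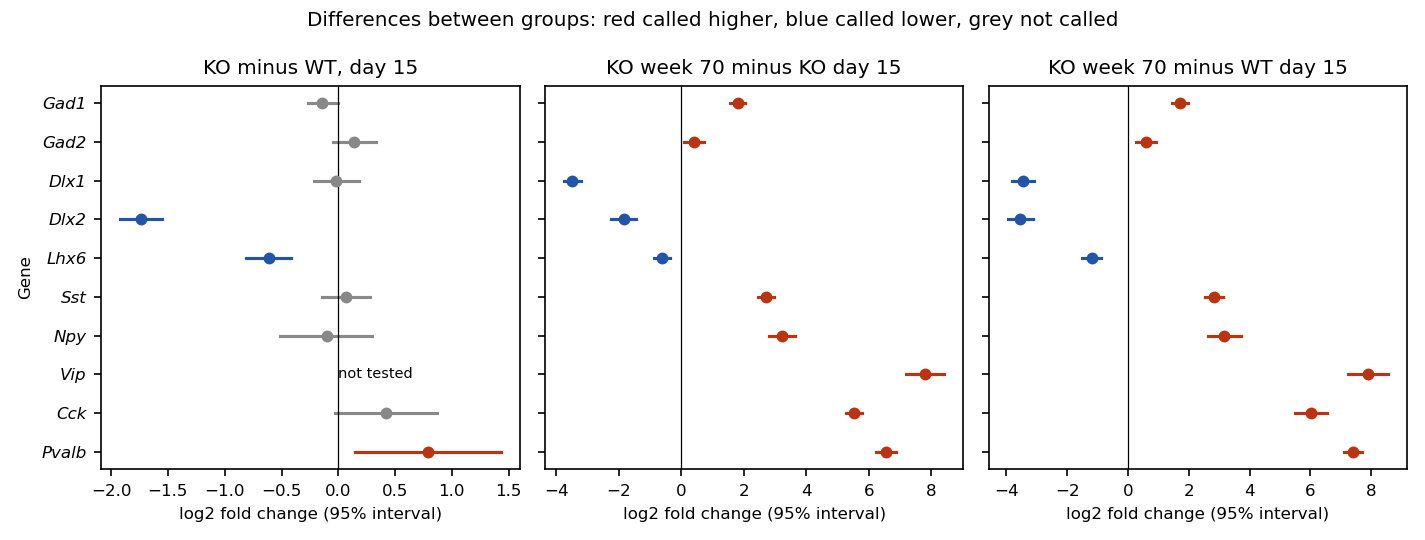
Log2 fold changes of the 10 genes in the 3 comparisons, with 95% intervals from the edgeR fit; Vip has no value at day 15. In the day 15 comparison Dlx2 (-1.74) is farthest from 0. In the comparisons with week 70 the genes spread from below -3 (Dlx1, and Dlx2 against WT) to above 7 (Vip, and Pvalb against WT).

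**Figure D4:**
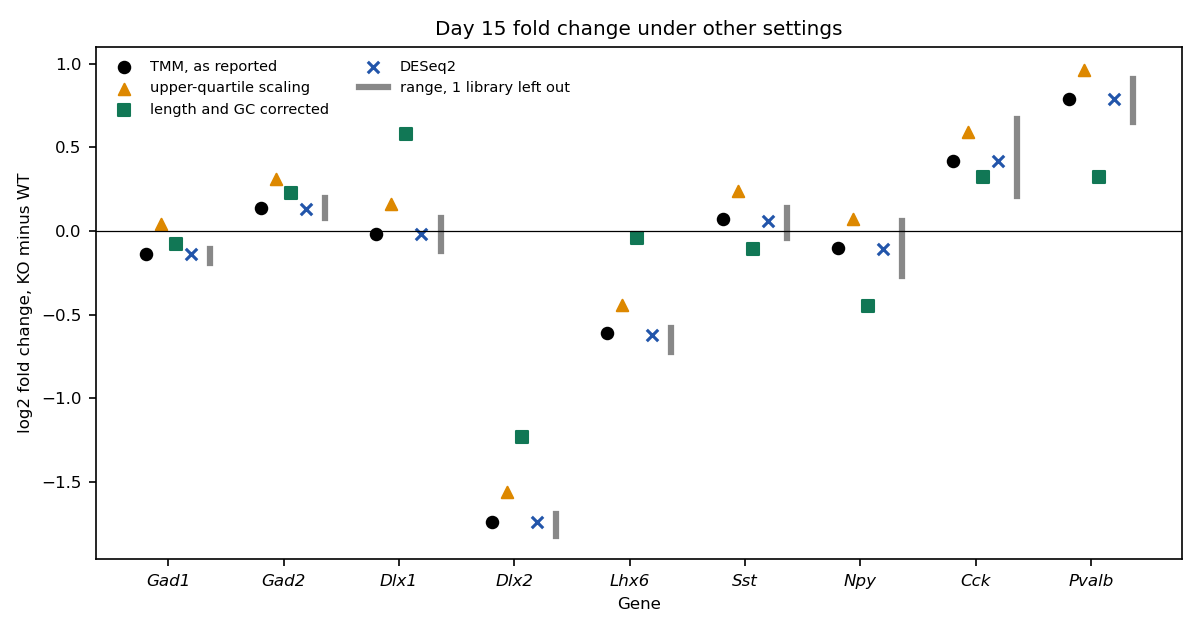
Log2 fold changes (KO minus WT) at day 15 of the 9 tested genes with TMM, upper-quartile scaling, the length and GC correction and DESeq2 (points), and the range on leaving out 1 library (grey bars). Dlx2 stays well below 0 in each (lowest -1.82, highest -1.23), while Lhx6 and Dlx1 change with the length and GC correction (-0.04 and 0.58).

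Between fetal and week 70 knockout brain all 10 genes changed. The transmitter enzymes, the peptides and Pvalb rose, and the 3 transcription factors fell. The rises were largest for Vip, Pvalb and Cck; Vip was near the floor in fetal brain, Pvalb had 17 to 27 counts per fetal KO library and Cck 160 to 179. With edgeR, 7 genes were called higher and 3 lower, where 82% of 20000 tested genes were called (37.6% higher and 44.4% lower), and groups did not overlap for 10 of 10 genes against 87.9% of all genes (42.3% higher and 45.6% lower). Vip, among the 7 called higher, passed the filter on low counts only through the week 70 libraries. Scaling matters in this comparison, since the median of all genes was -0.19 with TMM and -0.44 with upper-quartile scaling.

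Gad1 rose to 416 and 534 CPM at week 70, a log2 fold change of 1.8 over fetal KO (SE 0.11; edgeR adjusted p = 8.99e-08). Gad2 rose less, to 181 and 259 CPM, with a log2 fold change of 0.41 (SE 0.143; edgeR adjusted p = 0.0209). The Gad2 call was lost with upper-quartile scaling (0.16, edgeR adjusted p = 0.309), without fetal KO replicate 1 (0.34, 0.0673) and without week 70 replicate 2 (0.13, 0.304). The Gad2 to Gad1 ratio was 0.436 and 0.485 at week 70 against 1.12 to 1.28 in fetal KO (exact permutation p = 0.1, the smallest possible). Week 70 replicate 2 was the higher library for both enzymes. A list of striatal projection neuron markers went the other way, summing to 1670 CPM in replicate 1 and 593 in replicate 2, and hypothalamic markers summed to 24 and 75 CPM.

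Dlx1 fell to 15.8 and 20.1 CPM, 11.2-fold below fetal KO (log2 fold change -3.49, SE 0.12; edgeR adjusted p = 1.31e-09). Dlx2 fell to 5.54 and 8.34 CPM, a smaller log2 fold change of -1.85 from its already low fetal KO level (edgeR adjusted p = 4.42e-06). Lhx6 fell to 27 and 22.5 CPM, a log2 fold change of -0.63 (edgeR adjusted p = 0.000462). With the length and GC correction the falls were larger, at -4.5 for Dlx1, -2.88 for Dlx2 and -1.69 for Lhx6. The Dlx2 to Dlx1 ratio was 0.35 and 0.414, the first below and the second within the WT range of 0.373 to 0.442; against WT the exact permutation p was 0.5.

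Among the peptides, Sst reached 361 and 286 CPM (log2 fold change 2.71) and Npy 105 and 67.3 CPM (3.23). Cck reached 540 and 457 CPM, 46.5-fold above fetal KO (log2 fold change 5.54, SE 0.115; edgeR adjusted p = 8.06e-11). Vip reached 961 and 609 counts, or 63.4 and 42 CPM, against 3 to 4 counts in the fetal KO libraries. Its fitted log2 fold change was 7.8 (95% interval 7.19 to 8.42). Vip passed the filter on low counts only through the week 70 libraries. Its call as higher was therefore fixed by the filter, and its p-value is not given. Pvalb reached 141 and 122 CPM, with a log2 fold change of 6.56 (SE 0.144; edgeR adjusted p = 1.03e-10), and the week 70 libraries did not overlap the fetal ones for any of these genes.

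Set against WT fetal brain, the week 70 knockout differed in genotype and age together, which cannot be told apart, and it shares libraries with both comparisons above. All 10 genes were called in the same directions, 7 higher and 3 lower, where 78.6% of 19465 tested genes were called (36.7% higher and 41.9% lower). Vip again passed the filter on low counts only through the week 70 libraries. Groups did not overlap for any of the 10, against 86.4% of all genes (40.1% higher and 46.3% lower). The log2 fold changes were 1.71 for Gad1, 0.6 for Gad2, -3.46 for Dlx1, -3.54 for Dlx2 and -1.2 for Lhx6. They were 2.83 for Sst, 3.17 for Npy, 7.9 for Vip, 6.01 for Cck and 7.39 for Pvalb.

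Levels were compared between genes as CPM per kilobase of merged exons. The order depends on this choice of length. Merged exons span 7639 bases for Gad1 and 1305 for Cck, while their longest transcripts have 3601 and 799. For Gad2 the 2 lengths are 5876 and 5744 bases, and for Sst both are 721. Places of Gad1 against Gad2, or of Cck against Sst, can therefore change with the length used. In WT the order was Sst (62.6 ± 6.99 CPM per kb, SD, n = 3), Dlx1 (36.3 ± 4.65), Dlx2 (28 ± 2.73), Gad2 (24.5 ± 1.76), Gad1 (18.8 ± 0.905), Npy (16.7 ± 3.69), Lhx6 (11.7 ± 1.35), Cck (5.89 ± 1.83), Pvalb (0.734 ± 0.0674) and Vip (0.0621 ± 0.00566). The ranges of Dlx2 and Gad2 overlapped, as did those of Gad1 and Npy. In fetal KO Dlx2 dropped to 8.16 ± 0.526 CPM per kb and overlapped Cck (7.66 ± 0.608), whose range overlapped that of Lhx6 (7.45 ± 0.319). At week 70 Sst (448 ± 73.7, n = 2) and Cck (382 ± 44.6) led with overlapping ranges, followed by Npy and Pvalb, whose ranges also overlapped, and Dlx1 (3.33) and Dlx2 (2.43) came last.

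The genes whose pattern over the 8 libraries was most like each member were found by Pearson correlation of log2 normalised CPM, a measure dominated by the difference between ages and given without a test. Among 12881 genes, Dlx1 was closest to Dhx15 and Cep162 (both 0.9998) and Dlx2 to Col22a1 (0.9987) and Ago1 (0.9984). Gad1 was closest to Gria1 (0.999), an AMPA receptor subunit, and Mfsd6 (0.9989). For Gad2 the best match, Zfp688, reached only 0.9708.

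Genes linked to the same pathway and cells, from lists chosen with earlier results of these data known, are described by counts and medians. The genes of these lists, like the members, need not be particular to interneurons. Bulk RNA does not show which cells expressed them, so a change in a list is not a change shown in interneurons. At day 15, of 24 other interneuron transcription factors tested, 0 rose and 19 fell, with a median log2 fold change of -0.97 against 0.03 over all genes. With the length and GC correction 1 rose and 18 fell (median -0.62). The largest falls were those of Gsx1 (from 4.34 ± 0.202 to 1.01 ± 0.248 CPM, SD, n = 3 each; log2 fold change -2.06) and Gbx2 (-1.64). Over all genes 30.1% were called higher and 32.5% lower, the background for each of these lists. Of 8 genes of GABA transport and breakdown, 0 rose and 7 fell (median -0.78; 1 and 5 with the correction). Slc32a1, the vesicular GABA transporter, fell from 51.9 ± 4.6 to 15.1 ± 3.92 CPM (log2 fold change -1.75, edgeR adjusted p = 4.27e-06; -1.01 with the correction). Slc6a11, a plasma membrane GABA transporter, fell by 1.66 on the log2 scale (-1.1 with the correction).

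Of 20 interneuron migration genes, 0 rose and 17 fell at day 15 (median -0.72; 2 and 13 with upper-quartile scaling), led by the adhesion molecule Cntn2 (-1.66) and the guidance receptor Robo1 (-1.62). Of 26 further subtype markers, 6 rose and 10 fell (median -0.19), a split that upper-quartile scaling turned to 9 and 6. Vwc2l (1.06) and the tachykinin gene Tac1 (0.87) rose most, though Tac1 missed the threshold after correction (0.26, edgeR adjusted p = 0.0588), and Reln (-1.76) and Nos1 (-1.56) fell most. Of 12 peptide receptors 1 rose (Npy1r, 0.56) and 5 fell, with Sstr3 at -1.43 and Adcyap1r1 at -1.09. With the correction 0 rose and 4 fell, and Npy1r missed the threshold (0.19, edgeR adjusted p = 0.474). Of 13 genes of peptide processing and secretion 0 rose and 9 fell, led by Vgf (-1.94) and Pcsk1n (-1.42). With the length and GC correction the genes that fell most were still lower but by less, with Cntn2 at -0.69, Robo1 at -1.02, Reln at -1.07, Nos1 at -0.68, Sstr3 at -0.7, Adcyap1r1 at -0.39 and Vgf at -1.11. Several lists of other cells fell as well: of 12 glutamatergic markers 1 rose and 9 fell (median -0.87) and of 12 ventricular progenitor markers 1 rose and 11 fell (median -0.87). Of 12 striatal projection neuron markers 2 rose and 8 fell (median -0.47), and of 14 pan-neuronal genes 3 rose and 9 fell (median -0.63). With the correction the medians were -0.44 for glutamatergic, -0.72 for progenitor, -0.18 for striatal and -0.11 for pan-neuronal genes. Of 9 erythroid markers 6 rose and 1 fell.

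**Figure D5:**
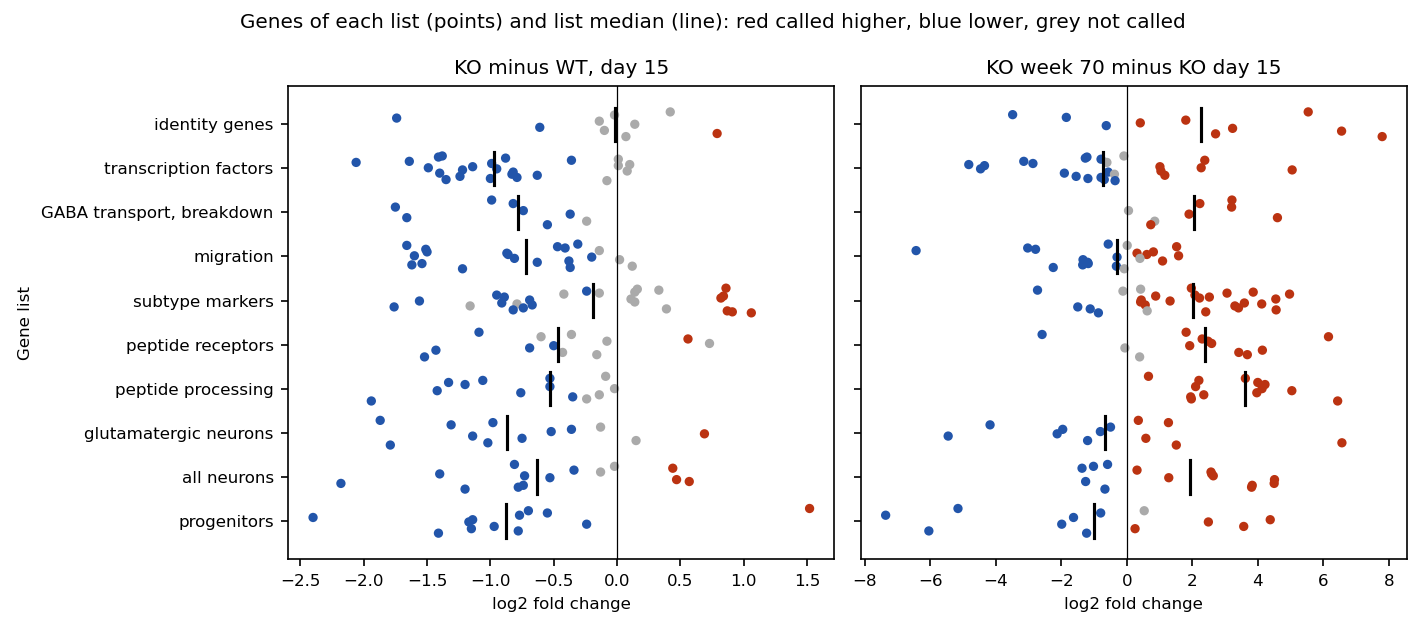
Log2 fold changes of the genes in each list for the genotype comparison at day 15 and for the age comparison within the knockout, with the list median. Transcription factor and migration lists lie mostly below 0 at day 15 (medians -0.97 and -0.72), and peptide processing lies above 0 with age.

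With age in the knockout, 6 of the 24 transcription factors rose and 15 fell (median -0.74), where 37.6% of all tested genes were called higher and 44.4% lower (median -0.19). Nkx6-2, known from oligodendrocytes as well, rose by 5.05 on the log2 scale, and Isl1 (-4.83) and Nkx2-1 (-4.47) fell most. Of the 8 GABA transport and breakdown genes 6 rose and 0 fell (5 and 1 with the correction), led by Slc6a11 (4.6) and the GABA transaminase Abat (3.21). Both are also expressed by astrocytes, and glial markers rose in the same libraries: 8 of 8 astrocyte markers (median 5.4; sums of 199 to 203 CPM in fetal KO and 7420 to 8050 at week 70), 9 of 9 oligodendrocyte markers (median 5.67) and 8 of 8 microglial markers (median 3.74). Their part in the rises of the lists was not tested. Of the 20 migration genes 6 rose and 11 fell (median -0.31), with doublecortin (Dcx), a marker of migrating young neurons, at -6.44 and the chemokine receptor Cxcr4 at -3.03. Of the 26 subtype markers 19 rose and 4 fell, with Crhbp at 4.97 and Syt2 at 4.56, and Chodl at -2.73 and Reln at -1.5. All 13 peptide processing genes rose, led by Vgf (6.44), and 9 of 12 peptide receptors rose and 1 fell, led by the cholecystokinin receptor gene Cckbr (6.16).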

How the data were processed

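Polyadenylated RNA of whole brain was captured on poly-T beads and copied from random primers, per the labels' protocols. Raw read counts per Ensembl gene were deposited by the authors as 1 table of 34299 genes, with no normalisation. FastQC, cutadapt, Trimmomatic, HISAT2, featureCounts, edgeR and the builds GRCm38 and GRCm39 are named, without roles, per the submitters' processing notes. Strand and multimapping settings are not given in the sources used here. Groups followed the sample titles. Each comparison was fitted on its own libraries with edgeR 4.0.16 in R 4.3.3 (filterByExpr, TMM, quasi-likelihood F-test, two-sided, Benjamini-Hochberg threshold 0.05). Levels were scaled by TMM over all 8 libraries, so their ratios can differ slightly from fitted fold changes. The scripts were tested on simulated data. Places and exon lengths come from GENCODE M21 (97.3% of IDs matched). A count of 0 allows up to 3 counts, 0.14 to 0.207 CPM per library, which covers counting error only.

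The members and lists were chosen with earlier results of these data known. The rule for named genes took the 10 members and the 2 genes most like each member. From each interneuron, GABA and peptide list it took the 2 largest called rises and falls with a mean of at least 50 counts. Not all genes that meet the rule are named. Those left out include the genes most like Lhx6, Sst, Npy, Vip, Cck and Pvalb, and the list genes Etv1, Ephb3 and Cxcl12. Dlx5, Dlx6, Dlx1as and Nkx2-1 at day 15 fall outside this rule and were named after their values were seen. Alternatives were other scalings, filters, DESeq2 1.42.0, a length and GC correction (mgcv 1.9.3), 1 fit of all libraries, a replicate block and leaving out each library.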

Additional observations from a re-analysis of the deposited data

How the results depend on the processing

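Of 415 alternative values of 29 results, 380 kept their direction and side of the threshold. Without a change of sign, 8 newly passed it and 15 lost it. The other 12 changed sign, whichever side of the threshold they fell on. They include Dlx1 at day 15 with the length and GC correction, which newly passed it. In the comparisons with week 70 the only changes were those of Gad2 against fetal KO, which lost its call in 3 alternatives. All other changes were at day 15, so the pooled total overstates how steady the day 15 results were. At day 15 upper-quartile scaling called 6 members in place of 3 and moved Gad1 to 0.04, Dlx1 to 0.16 and Npy to 0.07; it also raised the median of all genes from 0.03 to 0.2 and the share of calls that were higher from 48.1% to 60.8%. Sst was -0.02 with no filter. The length and GC correction gave 0.58 for Dlx1 and -0.11 for Sst, and with the replicate block as well 0.59 and -0.11. Leaving out 1 library gave -0.12 to 0.08 for Dlx1, -0.27 to 0.06 for Npy and -0.04 to 0.14 for Sst. The Dlx2 to Dlx1 ratio at week 70 minus WT ranged from -0.0599 to 0.00451 on leaving out 1 library. For all of these the cause was not tested. Replicate numbers alone do not show whether samples were paired. Deviations of same-numbered fetal libraries from their group correlated at -0.142, -0.196 and -0.175, and those of differently numbered ones at 0.066 to 0.106. Deviations cancel within a group, so these correlations constrain each other and cannot settle pairing. With the replicate block 2 members were called at day 15 and 11184 genes in place of 11993, and all 10 members were called in both comparisons with week 70. Depth limits Vip, with 3 to 5 counts per fetal library, and Pvalb, with 14 to 27. Only 2 libraries limit precision at week 70, and that group differs from the fetal groups in sex composition.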
